A study of Mus musculus with 6 samples.

Results

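The 10 genes described here mark the states that macrophages take up in mouse tissue: Arg1, Mrc1 and Chil3 for alternative activation, Nos2 for classical activation, Apoe, Trem2 and Spp1 for lipid-associated macrophages, and Cd163, Vsig4 and Folr2 for tissue-resident macrophages. They were picked by symbol from the 54532 genes of the table, and each of the 10 symbols matched 1 row. Among these genes the groups of tumors were apart only for Arg1 and Apoe. Arg1 was higher in every tumor labelled Gli2CA than in any NTC tumor, as were 15.9% of all tested genes. Apoe was lower in every one, as were 17.9% of all tested genes. Neither passed the test across all genes.

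Macrophages are tissue phagocytes whose gene programs follow the signals around them. Interferon gamma and bacterial products induce Nos2, which turns arginine into nitric oxide, whereas interleukin 4 and interleukin 13 act through Stat6 to induce Arg1, Mrc1 and Chil3 in the mouse. Macrophages that take up lipid and cell debris express Apoe, Trem2 and Spp1. Long-lived resident macrophages carry the scavenger receptor Cd163, the complement receptor Vsig4 and the folate receptor Folr2. In tumors these programs mix, and Arg1 and Spp1 are also known to respond to low oxygen.

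Whole tumors, sequenced in bulk, had grown in C57Bl/6 mice from a melanoma cell line with an activating BRAF mutation. The cells carried Gli2CA, described as an active form of the Hedgehog pathway factor Gli2, or a non-targeted control (NTC), and had been grown under puromycin. For each tumor 1000000 cells were implanted in 100 uL of a matrigel and saline mix, and harvest was at day 28, with 3 tumors labelled Gli2CA and 3 labelled NTC. The mice kept their own immune system as far as the labels state, so that macrophages of the host are part of each sample. The labels name no promoter for the introduced gene, give no clone number, no age or sex of the mice, and leave unsaid whether every sample is a separate mouse, so the p-values rest on a spread between samples that could be technical. In a whole tumor, fewer cells of a type and less RNA per cell cannot be told apart.

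The libraries held 16225486 to 22274096 fragments, computed back from the deposited FPKM values (fragments per kilobase of transcript, scaled to library depth). Gli2 itself was at 3.22, 5.82 and 1.61 FPKM in the tumors labelled Gli2CA, against 8.88, 11.1 and 7.96 FPKM in NTC tumors (adjusted p = 0.0853), which goes against the label, so each direction below is that of the library labels. The sources used here do not say whether the introduced transcript is counted under mouse Gli2. All 18 pan-macrophage genes of the list used below were expressed above the filter, among them Adgre1 and Csf1r. Of 9 melanocytic genes 3 were, namely Sox10, Mitf and Pmel, while the pigment cell genes Tyrp1 and Slc45a2 stood at 0 in every library and Tyr, Dct, Mlana and Gpr143 reached at most 0.504 FPKM.

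Of the 10 genes, 9 had a mean of at least 0.5 FPKM over the 6 tumors and were tested; Vsig4 was not. With limma on log2(FPKM + 0.5) and Benjamini-Hochberg adjustment over all 15820 tested genes, 0 of the 9 passed an adjusted p of 0.05, where 0.348% of all tested genes did, 0.265% with higher and 0.0822% with lower values. Limma-voom on the recovered fragments also called 0 of the 9, where it called 0.670% of all genes. At an unadjusted p under 0.05 there were 3 of the 9 in limma, Arg1 and Spp1 with higher and Apoe with lower values, and the same number in limma-voom, beside 27.5% of all tested genes in limma and 27.9% in limma-voom. Estimates were positive for 6 and negative for 3, where 47.4% of all tested genes had a positive one, with a median log2 fold change of 0.12, against -0.04 over all tested genes. The groups did not overlap for Arg1 and Apoe, 2 of the 9, 1 higher and 1 lower; this was so for 33.8% of all tested genes, 15.9% higher and 17.9% lower.

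**Figure D1:**
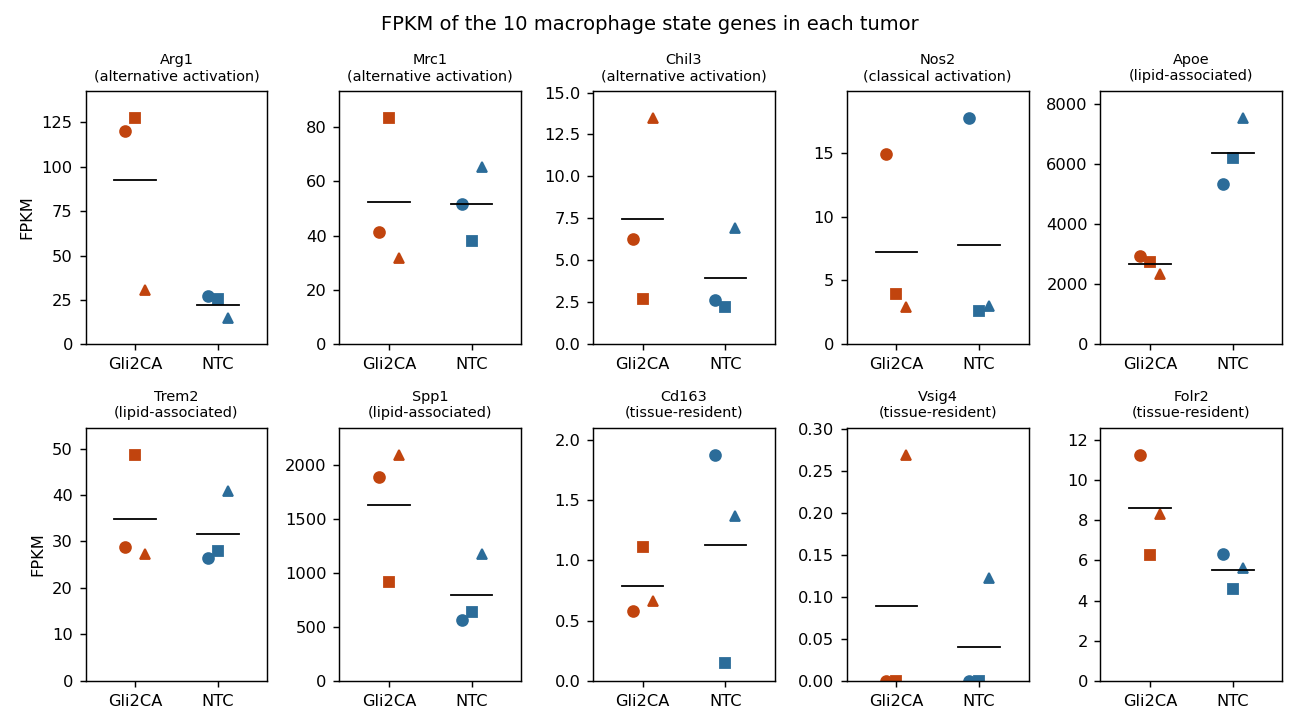
FPKM (vertical axes, each starting at 0) of the 10 genes in the 3 tumors labelled Gli2CA (left, orange) and the 3 NTC tumors (right, blue). Circles, squares and triangles are replicates 1, 2 and 3 of each group and black lines are group means; Arg1 and Apoe are the genes whose groups do not overlap among the 9 that were tested.

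Arg1 (ENSMUSG00000019987, chromosome 10, 24915221 to 24927484, minus strand; positions are from GENCODE M21, build GRCm38) encodes arginase 1, which splits arginine into ornithine and urea. It stood at 119.9, 127 and 30.8 FPKM in Gli2CA replicates 1, 2 and 3, against 27.0, 25.3 and 14.6 FPKM in NTC replicates 1, 2 and 3. Replicates 1 and 2 of Gli2CA were far above the rest, while replicate 3 of Gli2CA lay just above the highest NTC tumor. These values rested on 2060, 1808 and 544 fragments in Gli2CA and on 526, 467 and 226 fragments in NTC, so counting error is small beside the spread between tumors. The means were 92.8 ± 53.8 FPKM in Gli2CA and 22.3 ± 6.73 FPKM in NTC (SD, n = 3 each). On the log2(FPKM + 0.5) scale the difference was 1.83 (SE 0.52, 95% interval 0.66 to 2.999), with an adjusted p of 0.0883 in limma. Without Gli2CA replicate 3 it was 2.49 (SE 0.32, adjusted p = 0.0777), and without Gli2CA replicate 2 it was 1.48 (SE 0.55, adjusted p = 0.163).

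The spread of Arg1 inside the Gli2CA group was 4.13-fold from lowest to highest tumor, against 1.85-fold inside NTC. The gene whose pattern over the 6 tumors was nearest to that of Arg1, by root mean square distance of centred log2(FPKM + 0.5) values, was Gzmg, which encodes a granzyme, at a distance of 0.23. Gzmg was low, at 2.46, 3.05 and 0.491 FPKM in Gli2CA, against 0.395, 0.0521 and 0 FPKM in NTC. The third nearest was Mmp12, the macrophage metalloelastase, at a distance of 0.50. Mmp12 stood at 36.2, 42.9 and 18.3 FPKM in Gli2CA, against 15.7, 9.76 and 11.6 FPKM in NTC. Both genes were found by their likeness to Arg1 over these same tumors, so their own difference between the groups follows from that choice and is given without a test. The other three of the nearest 5, Mir684-2, Mir351 and Traj43, had at most 5 fragments in any library.

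Mrc1 (ENSMUSG00000026712, chromosome 2, 14229392 to 14332057, plus strand) encodes the mannose receptor, an endocytic receptor of alternatively activated and many resident macrophages. It was at 41.5, 83.3 and 31.9 FPKM in Gli2CA, against 51.7, 37.9 and 65.4 FPKM in NTC. The highest and the lowest of the 6 tumors were both in the Gli2CA group, and the groups overlapped fully. The log2 fold change was -0.07, with a 95% interval of -0.90 to 0.76 (adjusted p = 0.921 in limma), and its sign was not stable. It was 0.28 with the gene length trend between libraries removed, and 0.03, 0.22 and 0.12 without Gli2CA replicate 1, Gli2CA replicate 3 and NTC replicate 3.

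Chil3 (ENSMUSG00000040809, chromosome 3, 106147554 to 106167564, minus strand) encodes a secreted chitinase-like lectin that mouse macrophages make after interleukin 4 and that neutrophil precursors also make. It was at 6.26, 2.68 and 13.5 FPKM in Gli2CA, against 2.66, 2.19 and 6.94 FPKM in NTC, from 30 to 188 fragments in Gli2CA libraries and 32 to 85 in NTC libraries. The groups overlapped, with the highest value of each group in the tumor that had its lowest Arg1. The estimate on the log2 scale was 0.75 (SE 0.56, 95% interval -0.51 to 2.01, adjusted p = 0.401). It was 0.22 without Gli2CA replicate 3, 1.29 without Gli2CA replicate 2 and 0.32 with the gene length trend removed. Chil4 is a near copy of Chil3 on the same chromosome, and the sources used here do not say how shared fragments were assigned, so the Chil3 level is uncertain to that extent. Chil4 had 2 fragments over the Gli2CA libraries and 1 over the NTC libraries.

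Nos2 (ENSMUSG00000020826, chromosome 11, 78920787 to 78960254, plus strand) encodes inducible nitric oxide synthase, which competes with arginase for arginine. It was at 14.9, 3.94 and 2.91 FPKM in Gli2CA, against 17.7, 2.58 and 3.01 FPKM in NTC. A single tumor in each group was high and the other 4 tumors lay between 2.58 and 3.94 FPKM, so Nos2 differed far more inside the groups than between them. The range was 5.12-fold inside Gli2CA and 6.89-fold inside NTC, on 147 to 1089 fragments per library. The log2 fold change of 0.08 had a 95% interval of -1.601 to 1.76 (adjusted p = 0.956), which leaves room for changes of either sign, and leaving out a single tumor moved it between -0.58 and 0.91. Both tumors with high Nos2 were also high in Arg1 for their group, but Gli2CA replicate 2, with the highest Arg1 of all, had 3.94 FPKM of Nos2. The ratio of Arg1 to Nos2 FPKM was 8.05, 32.4 and 10.6 in Gli2CA, against 1.52, 9.82 and 4.85 in NTC, and the groups overlapped.

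Apoe (ENSMUSG00000002985, chromosome 7, 19696109 to 19699188, minus strand) encodes apolipoprotein E, which carries cholesterol and other lipids out of macrophages and is also made by many other cells. It was among the most abundant transcripts, the 7th by mean FPKM of all tested genes. It was at 2941, 2729 and 2337 FPKM in Gli2CA, against 5314, 6198 and 7519.8 FPKM in NTC. Every tumor labelled Gli2CA lay below every NTC tumor, and the spread inside the groups was small, 1.26-fold and 1.42-fold. The means were 2669 ± 307 FPKM in Gli2CA and 6344 ± 1110.1 FPKM in NTC (SD, n = 3 each). The log2 fold change was -1.24 (SE 0.31, 95% interval -1.95 to -0.53), with an adjusted p of 0.0765 in limma, and it kept within -1.36 to -1.11 when any 1 tumor was left out.

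Spp1 (ENSMUSG00000029304, chromosome 5, 104435118 to 104441050, plus strand) encodes osteopontin, a secreted adhesion protein that both macrophages and tumor cells make. It was at 1888, 915 and 2098 FPKM in Gli2CA, against 561, 636 and 1181 FPKM in NTC. Gli2CA replicates 1 and 3 were above all NTC tumors, while Gli2CA replicate 2 lay below NTC replicate 3, so the groups overlapped. The estimated log2 fold change was 1.03 (SE 0.41, 95% interval 0.10 to 1.97, adjusted p = 0.151). Without Gli2CA replicate 2 it was 1.41 (SE 0.36, adjusted p = 0.0969). The annotated gene Gm42793 shares 309 exon bases with Spp1 on the same strand, and it held 5 to 24 fragments per library in Gli2CA and 3 to 6 in NTC, few beside the 13278 to 45018 of Spp1 over the 6 libraries.

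Inside each group Arg1 and Spp1 ran in opposite order at the extremes. In Gli2CA, replicate 2 had the highest Arg1 and the lowest Spp1, and replicate 3 the lowest Arg1 and the highest Spp1. In NTC, replicate 3 had the lowest Arg1 and the highest Spp1, and replicate 1 the highest Arg1 and the lowest Spp1. With 3 tumors a group this is a description and was not tested.

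Trem2 (ENSMUSG00000023992, chromosome 17, 48346401 to 48354147, plus strand) encodes a lipid-sensing receptor of lipid-associated macrophages that signals through Tyrobp. It was at 28.8, 48.7 and 27.4 FPKM in Gli2CA, against 26.4, 27.9 and 40.8 FPKM in NTC. A single tumor stood out upward in each group and the other 4 lay within 26.4 to 28.8 FPKM. Trem2 had a log2 fold change of 0.12, with a 95% interval of -0.54 to 0.77 (adjusted p = 0.818). Trem2 and Mrc1 were the closest in pattern of all pairs of the 9 genes, at a root mean square distance of 0.24 on the log2 scale, while Arg1 and Apoe were the farthest apart, at 1.69.

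The upstream 250 bases of Apoe and Spp1 are shown because these were the most abundant of the genes and their estimates had opposite signs. Sequences are from RefSeq on GRCm38.p6, 5′ to 3′ toward the gene, at chr7:19699189-19699438 (minus strand) for Apoe and chr5:104434861-104435110 (plus strand) for Spp1. Capitals mark matches on either strand to the motifs ACGTG (core of the hypoxia response element), TGACTCA (AP-1), CCAAT and TATAAA, and to the Stat6 palindrome.
Apoe upstream: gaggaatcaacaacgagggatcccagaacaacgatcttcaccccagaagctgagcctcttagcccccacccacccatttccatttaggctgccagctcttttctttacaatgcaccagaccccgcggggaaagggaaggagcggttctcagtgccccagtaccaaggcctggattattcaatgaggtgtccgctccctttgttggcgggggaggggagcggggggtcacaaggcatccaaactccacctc
Spp1 upstream: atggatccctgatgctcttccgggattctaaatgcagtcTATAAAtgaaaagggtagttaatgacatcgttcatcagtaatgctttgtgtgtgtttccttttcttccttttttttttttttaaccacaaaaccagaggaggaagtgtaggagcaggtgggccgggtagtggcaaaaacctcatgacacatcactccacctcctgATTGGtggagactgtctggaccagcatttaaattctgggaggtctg
These are the RefSeq windows farthest upstream; Apoe has 3 windows and Spp1 has 2. The Apoe window shown held no match, while its second window, at chr7:19698622-19698871, held TATAAA on both strands, starting 100 and 96 bases before that start. The Spp1 window held TATAAA starting 211 bases before the gene start and ATTGG, which is CCAAT on the other strand, starting 46 bases before it. Of 32851 RefSeq promoter windows cut in the same way, 12.4% held TATAAA, 33.8% CCAAT, 16.6% ACGTG, 4.46% TGACTCA and 5.85% the Stat6 palindrome. A match is a description of the sequence, and these data do not measure binding. RefSeq windows were found for 8 of the 10 genes; Arg1 and Nos2 are the other two.

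Folr2 (ENSMUSG00000032725, chromosome 7, 101839988 to 101857194, minus strand) encodes folate receptor beta, a surface marker of resident macrophages. It was at 11.3, 6.28 and 8.31 FPKM in Gli2CA, against 6.30, 4.58 and 5.61 FPKM in NTC, from 82 to 178 fragments per library in Gli2CA and 78 to 113 in NTC. The groups overlapped by the narrowest margin, with the lowest Gli2CA tumor just under the highest NTC tumor. Its log2 fold change was 0.58 (SE 0.27, 95% interval -0.03 to 1.19, adjusted p = 0.199), and 0.25 (SE 0.31) with the gene length trend removed. An antisense gene, Gm10602, overlaps exons of Folr2 on the opposite strand, and with the strand setting unknown their fragments may not be separable. Gm10602 held 17 to 20 fragments per library in Gli2CA and 19 to 32 in NTC. The nearest gene in pattern to Folr2 was Pdk1, at a distance of 0.06, followed by Dmrta2 at 0.08, Slc25a30 at 0.10, Mal at 0.11 and Ldha at 0.11; this comparison was chosen after the values were seen.

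Cd163 (ENSMUSG00000008845, chromosome 6, 124304656 to 124330527, plus strand) encodes the scavenger receptor for hemoglobin bound to haptoglobin. It was low in both groups, at 0.578, 1.11 and 0.665 FPKM in Gli2CA, against 1.88, 0.147 and 1.37 FPKM in NTC. NTC tumors held both the highest and the lowest value, on 162 and 12 fragments. The log2 fold change was -0.17, with a 95% interval of -1.27 to 0.93 (adjusted p = 0.847), and it was 0.20 without NTC replicate 1 and -0.74 without NTC replicate 2. NTC replicate 2 was also the lowest of the 6 tumors for 5 of 14 tested genes of the tissue-resident list, against 6.18% of all tested genes. This was not limited to resident genes, since the same tumor was lowest for 8 of 18 lipid-associated, 5 of 9 neutrophil and 8 of 17 hypoxia genes. It was not so for every list, with 2 of 18 pan-macrophage, 0 of 8 endothelial and 0 of 9 fibroblast genes. Gli2CA replicate 3 was lowest for 4 of the 14 resident genes, against 18.5% of all tested genes. Among the resident genes lowest in NTC replicate 2 were F13a1, at 2.51 FPKM against 17.3 to 25.6 FPKM in the other 5 tumors, and Cbr2, at 2.50 FPKM against 9.80 to 23.8 FPKM.

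Vsig4 (ENSMUSG00000044206, chromosome X, 96247203 to 96293438, minus strand) encodes the complement receptor of the immunoglobulin family, which is known from Kupffer cells and peritoneal macrophages. It had 0, 0 and 5 fragments in Gli2CA replicates 1 to 3, against 0, 0 and 2 fragments in NTC replicates 1 to 3. A count of 0 allows up to 0.166 and 0.201 FPKM in Gli2CA replicates 1 and 2, and up to 0.146 and 0.154 FPKM in NTC replicates 1 and 2, taking 3 fragments as the limit and covering counting error only. Vsig4 was therefore at or near the detection limit in every tumor, and no difference was detectable at this depth.

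**Figure D2:**
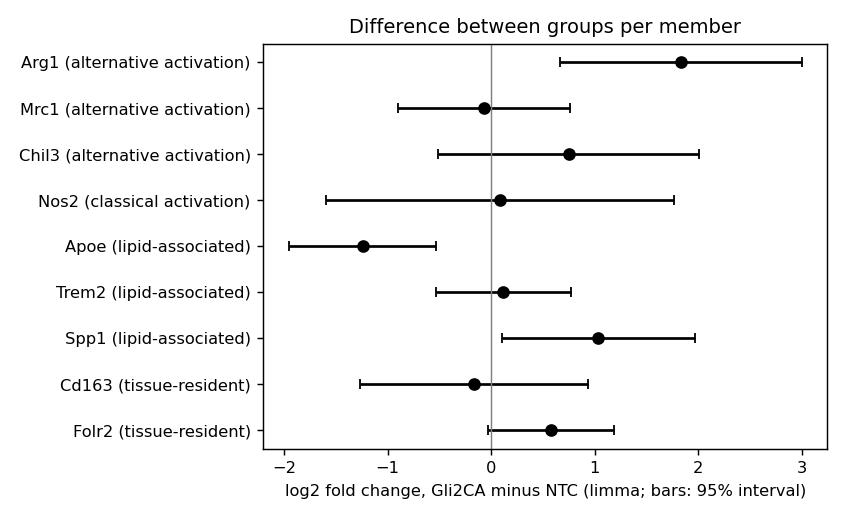
Log2 fold change of Gli2CA minus NTC (horizontal axis) for the 9 tested genes, with 95% intervals from limma before any adjustment for the number of genes tested. The intervals of Arg1, Apoe and Spp1 leave out 0, and the interval of Nos2 is the widest, from -1.601 to 1.76.

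Arg1 was then set against each of the other genes inside each tumor, as the difference of log2(FPKM + 0.5) values, in which the scaling of a library all but cancels. Against Apoe it was -4.61, -4.41 and -6.22 in Gli2CA, against -7.59, -7.91 and -8.96 in NTC. Every Gli2CA tumor was above every NTC tumor, and the group means differed by 3.07. As a plain ratio, Arg1 FPKM was 0.0408, 0.0467 and 0.0132 of Apoe FPKM in Gli2CA, against 0.00508, 0.00408 and 0.00194 in NTC.

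Against the lipid-associated gene Trem2, the Arg1 difference was 2.04, 1.38 and 0.17 in Gli2CA, against 0.03, -0.14 and -1.45 in NTC. The groups again did not overlap, by a small margin in Gli2CA replicate 3, and the means differed by 1.72. Against Spp1, the third lipid-associated gene, the difference was -3.97, -2.84 and -6.07 in Gli2CA, against -4.35, -4.63 and -6.29 in NTC. Here the groups overlapped, and the group means differed by 0.80, within the spread between tumors. Without Gli2CA replicate 2 this value was 0.07.

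Against the resident genes the groups overlapped. The Arg1 difference to Folr2 was 3.36, 4.24 and 1.83 in Gli2CA, against 2.02, 2.34 and 1.305 in NTC, and the means differed by 1.25. To Cd163 it was 6.80, 6.31 and 4.75 in Gli2CA, against 3.53, 5.32 and 3.01 in NTC, with means that differed by 1.9998. Gli2CA replicate 3 was the tumor that crossed into the NTC range both times. For Cd163 the only NTC tumor above it was replicate 2, where Cd163 rested on 12 fragments. Against Mrc1 the difference was 1.52, 0.61 and -0.05 in Gli2CA, against -0.92, -0.57 and -2.13 in NTC, and the groups did not overlap. Of all other tested genes, Arg1 was set apart in the same way from 50.8% (and in the lower direction from 0.0253%), so the 3 genes Apoe, Trem2 and Mrc1 among 8 are no more than the background. As these genes were chosen with earlier results of the same data known, no p is given for the differences.

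**Figure D3:**
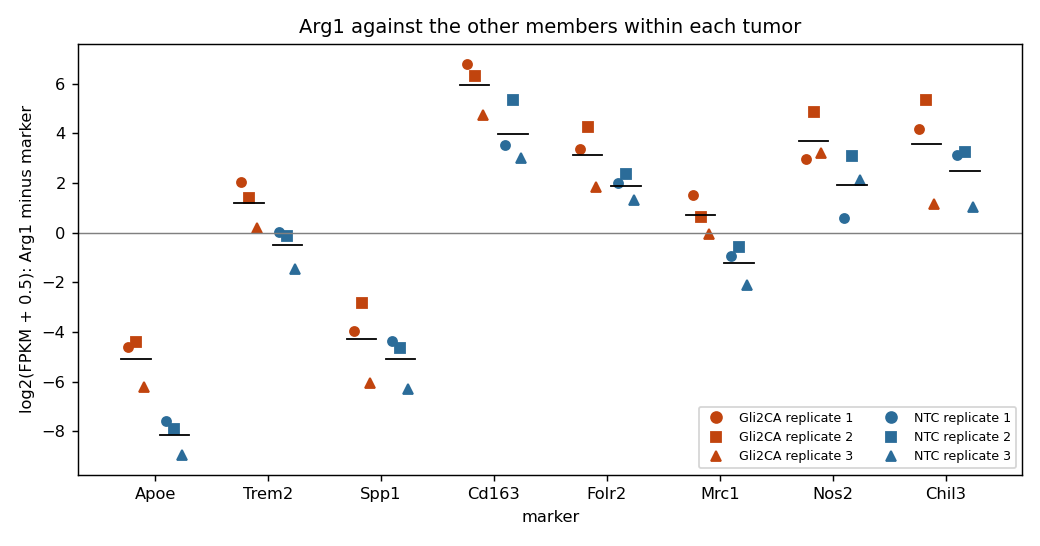
Difference of log2(FPKM + 0.5) between Arg1 and each marker inside each tumor (vertical axis), for 8 markers (horizontal axis), with Gli2CA left (orange) and NTC right (blue) and black lines at group means. The groups are apart for Apoe, Trem2 and Mrc1 and overlap for Spp1, Cd163, Folr2, Nos2 and Chil3.

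The 3 lipid-associated genes were also set against each other. Spp1 over Apoe was 0.642, 0.335 and 0.898 as a ratio of FPKM in Gli2CA, against 0.106, 0.103 and 0.157 in NTC, with no overlap. Trem2 over Apoe was 0.00978, 0.0178 and 0.0117 in Gli2CA, against 0.00496, 0.00450 and 0.00542 in NTC, also with no overlap. Both ratios have Apoe as the denominator, and Spp1 over Trem2 overlapped between the groups.

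Levels of general macrophage genes were compared so that the 10 genes can be read beside them. Of 18 tested pan-macrophage genes 0 passed, 1 was higher and 8 were lower at an unadjusted p under 0.05, and the median log2 fold change was -0.52, where 12.8% and 14.7% of all tested genes were higher and lower at that level. Csf1r, the receptor for macrophage growth factor, was at 50.05, 28.8 and 26.3 FPKM in Gli2CA, against 117, 77.8 and 84.5 FPKM in NTC (log2 fold change -1.43, adjusted p = 0.0642). Cx3cr1, the fractalkine receptor, had a log2 fold change of -1.30 (adjusted p = 0.0622), and Spi1, which encodes the myeloid factor PU.1, one of -0.70 (adjusted p = 0.121). Their summed level was 4470 to 5955 FPKM in Gli2CA and 5153 to 7689 FPKM in NTC, so the sums overlapped; the abundant genes Lyz2 and Tyrobp had positive estimates, of 0.15 and 0.46.

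Set against the mean log2 value of the pan-macrophage genes in the same tumor, Arg1 was 0.04, 0.33 and -1.63 in Gli2CA, against -2.28, -2.20 and -3.42 in NTC. Spp1 was 4.02, 3.17 and 4.43 in Gli2CA, against 2.07, 2.43 and 2.87 in NTC, and Folr2 was -3.31, -3.91 and -3.46 in Gli2CA, against -4.30, -4.54 and -4.73 in NTC. On this scale Arg1, Spp1 and Folr2 were above all NTC tumors in each tumor labelled Gli2CA, as were 27.1% of all tested genes. The pan-macrophage mean was itself lower in each tumor labelled Gli2CA, at -0.23, -0.43 and -0.50 relative to the NTC mean, against -0.03, -0.21 and 0.24 in NTC, which moves every gene up alike, and Spp1 and Folr2 overlapped without it. Apoe was 4.66, 4.74 and 4.59 in Gli2CA, against 5.31, 5.71 and 5.54 in NTC, below in each, as were 3.67% of all tested genes. Mrc1, Trem2, Nos2, Chil3 and Cd163 overlapped between the groups on this scale too. Vsig4, which was not tested, was at -7.87, -7.67 and -6.98 in Gli2CA, against -8.07, -7.89 and -8.02 in NTC. It was thus apart on this scale although it had at most 5 fragments in any library.

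Other genes of the lipid-associated program were divided. Of 18 tested, 0 passed, and the median log2 fold change was 0.07. At an unadjusted p under 0.05, 4 were higher and 7 lower, beside 12.8% and 14.7% of all tested genes. Fabp5, a fatty acid binding protein, was at 68.3, 69.9 and 65.3 FPKM in Gli2CA, against 35.4, 33.1 and 37.2 FPKM in NTC (log2 fold change 0.94, adjusted p = 0.0642), and the others with higher values were Lgals3, Cd63 and Ctsl. Abca1 and Abcg1 encode cholesterol exporters and, with Apoe, are known targets of the liver X receptors. Abca1 had a log2 fold change of -0.74 (adjusted p = 0.0962) and Abcg1 one of -0.89 (adjusted p = 0.113), while Nr1h3, which encodes liver X receptor alpha, stood at 0.08. The part of these receptors in the level of Apoe was not tested. Itgax, an integrin of myeloid cells, had a log2 fold change of -1.05 (adjusted p = 0.0812). The others with lower values were Gpnmb, Ctsb, Lipa and Cst7, at -1.48, -0.80, -0.66 and -0.78 (adjusted p = 0.124, 0.0977, 0.148 and 0.156).

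The interleukin 4 and interleukin 13 list was counted next. It holds induced genes and also pathway components such as Il4, Il4ra, Il13ra1 and Stat6. Il10 and Il10ra, a cytokine and a receptor outside that pathway, are in the list too. Of 17 tested, 0 passed, and the median was -0.30. At an unadjusted p under 0.05, 0 were higher and 4 were lower, beside 12.8% and 14.7% of all tested genes. Egr2, a transcription factor of alternative activation, had a log2 fold change of -0.83 (adjusted p = 0.116), the chemokine gene Ccl22 one of -1.03 (adjusted p = 0.119) and Il10ra one of -0.61 (adjusted p = 0.153). Retnla, also induced by interleukin 4, ranged from 9.76 to 128 FPKM in Gli2CA and from 1.90 to 89.9 FPKM in NTC. Of 14 tested tissue-resident genes 0 passed, with a median of -0.04. At an unadjusted p under 0.05, 0 were higher and 3 were lower, beside the same shares of all tested genes. The lower ones were Fcgrt, Igf1 and Gas6 (log2 fold changes of -0.90, -1.26 and -1.20).

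Genes of classical activation gave 0 calls among 20 tested, with a median of -0.27. At an unadjusted p under 0.05, 1 was higher and 3 were lower, beside 12.8% and 14.7% of all tested genes. The higher gene was Il6 at 2.14 (SE 0.43, adjusted p = 0.0632), and Gpr18 and Cd38 were among the lower ones, at -1.09 and -0.79 (adjusted p = 0.106 and 0.114).

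In the arginine pathway, which Arg1 and Nos2 share, 0 of 19 tested genes passed in limma (median 0.00). At an unadjusted p under 0.05, 3 were higher and 1 lower, beside 12.8% and 14.7% of all tested genes. Sms, spermine synthase, which acts downstream of ornithine, was at 41.8, 48.8 and 50.7 FPKM in Gli2CA, against 10.1, 18.3 and 20.9 FPKM in NTC (log2 fold change 1.55, adjusted p = 0.0541). Azin1, which protects ornithine decarboxylase from its inhibitor, had a log2 fold change of 0.68 (adjusted p = 0.137). Slc7a2, the arginine transporter of macrophages, was at 4.23, 5.32 and 3.56 FPKM in Gli2CA, against 9.95, 12.02 and 10.04 FPKM in NTC (log2 fold change -1.21, adjusted p = 0.0615), and it was the 1 gene of the list that limma-voom called (adjusted p = 0.0495). Arg2, the mitochondrial arginase, stayed at 0.265 to 0.880 FPKM over the 6 tumors.

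**Figure D4:**
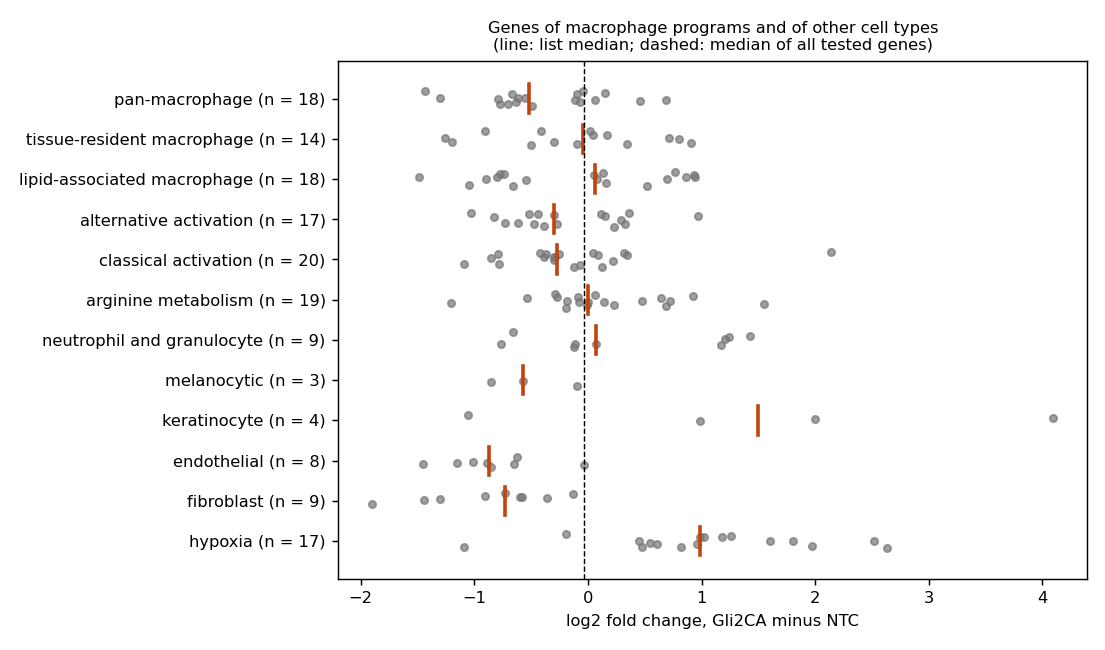
Log2 fold change of Gli2CA minus NTC (horizontal axis) for each tested gene (gray points) of the 12 lists (rows, with the number tested), with the list median (orange line) and the median of all tested genes (dashed line, -0.04). The hypoxia median lies at 0.98, and the pan-macrophage, endothelial and fibroblast medians lie at -0.52, -0.87 and -0.73.

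Genes of the response to low oxygen held the only calls among the 12 lists in limma. Of 17 tested, 4 passed, Bnip3, Ankrd37, Higd1a and Hilpda, each higher in Gli2CA, with log2 fold changes of 2.52, 2.63, 1.80 and 1.601 (adjusted p = 0.0117, 0.0117, 0.0225 and 0.0356), where 0.348% of all tested genes passed. At an unadjusted p under 0.05, 9 were higher and 1 was lower, beside 12.8% and 14.7% of all tested genes. The list was chosen with earlier results of these data known, so these counts describe it and are no test of it. The lower one was Pfkfb3, a regulator of glycolysis, at 21.6, 17.7 and 11.5 FPKM in Gli2CA, against 43.6, 35.7 and 28.6 FPKM in NTC (log2 fold change -1.09, adjusted p = 0.0798). As a mean log2 level centred on NTC, the list stood at 1.53, 0.84 and 0.72 in Gli2CA replicates 1 to 3, against 0.19, -0.15 and -0.04 in NTC replicates 1 to 3. Beside these list levels, Arg1 was at 119.95, 127 and 30.8 FPKM in Gli2CA replicates 1 to 3, against 27.0, 25.3 and 14.6 FPKM in NTC. Spp1 was at 1888, 915 and 2098 FPKM in Gli2CA, against 561, 636 and 1181 FPKM in NTC. Folr2 was at 11.3, 6.28 and 8.31 FPKM in Gli2CA, against 6.30, 4.58 and 5.61 FPKM in NTC. Arg1, Spp1 and Folr2 were set beside the list with their values known. Of the other tested members, Apoe was lower in each Gli2CA tumor. Mrc1, Trem2, Nos2, Chil3 and Cd163 overlapped between the groups, as did Spp1 and Folr2. The part of low oxygen in the levels of any of these genes was not tested.

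Cell types other than macrophages can also supply these transcripts. Of 16 neutrophil and granulocyte genes 9 were tested, 3 with higher and 1 with lower values at an unadjusted p under 0.05. Over all tested genes 12.8% were higher and 14.7% lower at that level, which also stands beside the counts of the other cell types below. The summed neutrophil and granulocyte level was 84.9 to 112 FPKM in Gli2CA and 43.6 to 91.9 FPKM in NTC. The smallest p-values were those of Trem1, Clec4d and S100a8, with log2 fold changes of 1.42, 1.24 and 1.21 (adjusted p = 0.0679, 0.0798 and 0.167). The list was divided, with 5 positive and 4 negative estimates. The lower gene was Csf3r, at -0.66 (adjusted p = 0.171), and Retnlg stood at -0.76 (adjusted p = 0.359). The neutrophil marker Ly6g stood at 0 in all libraries other than NTC replicate 3, at 0.177 FPKM. Of 8 endothelial genes 5 were lower at an unadjusted p under 0.05, summing to 63.7 to 76.4 FPKM in Gli2CA and 97.8 to 166 FPKM in NTC, led by Cdh5, Kdr and Flt4 at -1.15, -1.01 and -1.45 (adjusted p = 0.0736, 0.0785 and 0.118). Fibroblast genes summed to 5289 to 8596 FPKM in Gli2CA and 9928 to 31934 FPKM in NTC, with 4 of 9 lower at that level, led by Pdgfrb, Col1a1 and Pdgfra at -1.30, -1.90 and -0.60 (adjusted p = 0.0687, 0.0940 and 0.118). Keratinocyte genes summed to 49.5 to 129 FPKM in Gli2CA and 12.1 to 27.3 FPKM in NTC, with Krt14 and Pkp1 higher and Cdh1 lower at that level and Krt5 under 0.06 FPKM throughout. Melanocytic genes, mostly Sox10, summed to 58.9 to 104 FPKM in Gli2CA and 95.9 to 186 FPKM in NTC. Of 3 tested, 2 were lower at that level, Sox10 and Mitf at -0.85 and -0.58 (adjusted p = 0.147 and 0.135), and Pmel stood at -0.10. The part of these cell types in the levels of the 10 genes was not tested.

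**Figure D5:**
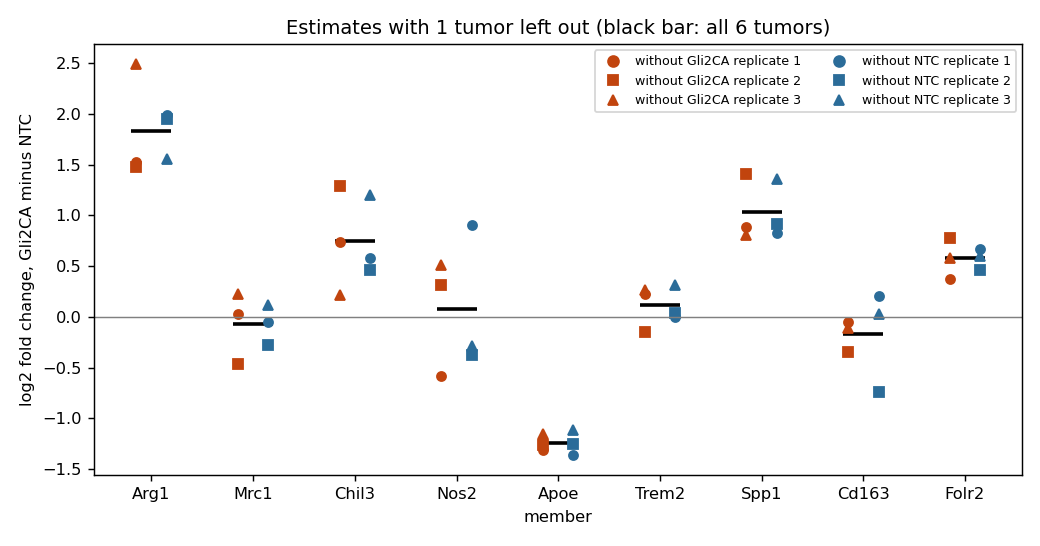
Log2 fold change of Gli2CA minus NTC (vertical axis) for the 9 tested genes with all 6 tumors (black bar) and with each tumor left out in turn (orange when a Gli2CA tumor is left out, blue when an NTC tumor is; circle, square and triangle for replicates 1, 2 and 3). Arg1, Chil3, Spp1 and Folr2 stay above 0 and Apoe stays below 0 in these 6 fits, while Mrc1, Nos2, Trem2 and Cd163 lie on both sides.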

How the data were processed

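Per the labels' protocols, column-purified tumor RNA was enriched on poly-T beads and primed with random hexamers. The authors deposited FPKM per gene and sample; how reads were aligned and counted, on which build and with what strand setting, is not stated in those sources. Columns were matched to samples by name and groups taken from sample titles. Of 54532 Ensembl identifiers, 54495 had a symbol and transcript lengths in GENCODE M21 (GRCm38), whose coordinates are printed. FPKM times the mean transcript length was a whole multiple of 1 step per library, within 0.1 fragment, for 99.5% to 99.6% of low values of genes with 1 transcript and 96.7% to 97.1% of those with several, which gave the fragments per library.

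Tests used limma 3.58.1 in R 4.3.3 (lmFit, eBayes with a variance trend) on log2(FPKM + 0.5), a scale that understates changes of low genes, for genes with a mean of at least 0.5 FPKM, two-sided, adjusted over all 15820 tested genes. The procedure was run on simulated counts with a fixed spread that was not estimated from these tumors. That run therefore does not show how the test performs at the spread seen here. The 10 genes and the 12 gene lists were chosen with earlier results of these data known. Named are the 10 genes, per list the 3 tested genes with the smallest p, the 5 nearest in pattern to Arg1, Gli2 and Chil4; other named genes were chosen after their values were seen. Python 3.11.15, pandas 2.3.3, numpy 2.4.6, scipy 1.17.1 and matplotlib 3.10.9 were used.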

Additional observations from a re-analysis of the deposited data

How the results depend on the processing

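Settings varied were the pseudocount (1 or 0.1), the filter (a mean of 1 FPKM, or no filter), the scaling (quantile or median-ratio), weights per sample, a replicate block, removal of a gene length trend per library, limma-voom on recovered fragments, and each tumor left out in turn. Of the 10 genes, 0 were called in 14 of these 16 settings. With sample weights 2 were called, Apoe (adjusted p = 0.0241) and Spp1 (0.0447), and with the replicate block 2, Arg1 (0.0241) and Apoe (0.0464). Over all 16 settings the adjusted p ran from 0.0241 to 0.263 for Arg1, 0.0241 to 0.362 for Apoe and 0.0447 to 0.399 for Spp1. Arg1, Chil3, Apoe, Spp1 and Folr2 kept the sign of their log2 fold change in each setting. The estimate of Trem2 was -0.10 with sample weights, that of Mrc1 0.28 and that of Cd163 0.20 with the length trend removed, and that of Cd163 0.043 with limma-voom; none of these passed and the cause was not tested. With each tumor left out, estimates ran from -0.47 to 0.22 for Mrc1, -0.58 to 0.91 for Nos2, -0.14 to 0.31 for Trem2 and -0.74 to 0.20 for Cd163. The difference of Arg1 to Apoe between the groups ran from 2.67 to 3.64, to Trem2 from 1.25 to 2.23, to Spp1 from 0.07 to 1.68, to Cd163 from 1.37 to 2.68 and to Folr2 from 0.71 to 1.91 over 12 settings.

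Over all tested genes, 55 were called (42 higher, 13 lower), against 81 with a pseudocount of 0.1 (53 higher, 28 lower), 145 with a filter at 1 FPKM (76 higher, 69 lower), 3 with none, 36 with quantile scaling, 1588 with sample weights (704 higher, 884 lower), 1928 with the replicate block (901 higher, 1027 lower), 106 with limma-voom (51 higher, 55 lower), and 4 to 97 with a tumor left out. The labels do not say whether samples with the same replicate number share anything beyond that number. Correlations of their deviations from the group means were 0.353, 0.221 and 0.024 for replicates 1, 2 and 3. Between samples of unlike number they ran from -0.285 to 0.078. Gli2CA replicate 3 correlated at 0.025 with NTC replicate 1, against 0.024 with NTC replicate 3. Whether the replicate block is the right model was therefore left undecided. Depth limits Vsig4, with at most 5 fragments, and Cd163, with as few as 12.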
